A study of Mus musculus with 4 samples.

Results

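The genes of the basal transcription machinery were examined in an ATAC-seq comparison of male and female mouse fat. All genes of the deposited gene table whose name begins with Polr1 to Polr3, Med and a number, Taf and a number, Gtf2 or Gtf3 were taken, which gave 89 of 11993 genes. They encode subunits of RNA polymerases I, II and III, subunits of Mediator, TBP-associated factors (TAFs) and the general transcription factors of polymerases II and III. Chromatin was taken from frozen, ground subcutaneous white adipose tissue of wild-type male mice (2 libraries) and wild-type female mice (2 libraries), and strain and age are not given in the labels. In ATAC-seq a transposase, Tn5, inserts adapters where chromatin is open, and the height of a peak is the scaled number of overlapping tags at its summit. Each library used 100000 nuclei. Whether the 2 libraries of a sex stem from different animals is not stated, so p-values measure the spread between these libraries, which may be technical.

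Polymerase II transcribes protein-coding genes, polymerase I the large ribosomal RNA precursor, and polymerase III transfer RNAs, 5S ribosomal RNA and other short RNAs. At a polymerase II promoter TFIID binds first through TBP and its TAFs, then TFIIA, TFIIB, TFIIF with the polymerase, TFIIE and TFIIH assemble, and Mediator relays signals from enhancer-bound activators to the polymerase. In fat cells the Mediator subunit MED1 is a known partner of the adipogenic nuclear receptor PPARG. TFIIIA and TFIIIC recognise promoters inside polymerase III genes.

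The open regions of these genes lay mostly at gene starts. The nearest summit was within 1000 bp of the gene start for 83 of the 89 genes (93.3%), against 69.7% of all genes, and within 100 bp for 64 (71.9%), against 48.3% of all genes. In all, 142 different merged regions were linked to the 89 genes, 91 of them within 1000 bp of a start. The 142 regions had a median width of 229 bp, against 195 bp for all 12477 regions of the series. The 91 near a start had a median of 251 bp, and the width of all regions near starts was not measured. A single region was linked to 49 of the genes, 2 regions to 28 genes and 3 or more to 12 genes, and each height below is the authors' average over a gene's regions. Regions were often shared with neighbours: 68 genes (76.4%, against 67.1% of all genes) shared at least 1 region with another gene, and 41 (46.1%, against 39.5%) shared all of them, so that their heights are not theirs alone. A divergent partner, on the other strand and with its start within 1000 bp of the same region, was found for 26 genes (29.2%, against 18.3% of all genes). Examples were Ptcd3 with Polr1a, Rabl3 with Gtf2e1, Serac1 with Gtf2h5, and Paf1, a subunit of an elongation complex, with Med29. These shares are descriptions of a list chosen by name, and no test of them was made.

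**Figure D1:**
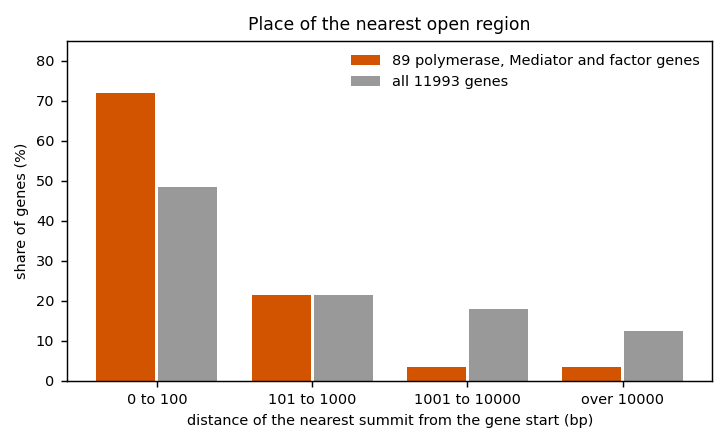
Share of genes (y axis, percent) by the distance in bp of their nearest summit from the gene start (x axis), for the 89 genes (orange) and all 11993 genes (grey). The first bin, up to 100 bp, holds 71.9% of the 89 genes and 48.3% of all genes, and the last bin holds 3.37% and 12.3%.

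The promoters that the results below turn on are shown as the 250 bases upstream of the RefSeq start (build GRCm38.p6, the assembly of mm10), read 5′ to 3′ on the gene's strand. Capitals mark matches on either strand to the GC box GGGCGG, the CCAAT box, the TATA box letters TATAAA, the ETS core CCGGAAG, the NRF1 core GCATGCG, the YY1 core AAGATGG, the ZFP143 core ACTACAA or GGTTCGA, the core of the B box, an internal promoter element of transfer RNA genes. The B box was added after values were seen. Polr2a is shown as the gene of the largest polymerase II subunit, Med26 as the highest gene of the Mediator head and middle, Med12 for the most negative sex difference and Taf4a as the single gene higher in both males. Gtf3c1 is shown as the highest gene of its group with ETS letters, and Polr3e for the most positive difference. Each printed stretch overlapped an open region except that of Taf4a, whose region begins at the next base upstream.
Polr2a (chr11:69758634-69758883, minus strand): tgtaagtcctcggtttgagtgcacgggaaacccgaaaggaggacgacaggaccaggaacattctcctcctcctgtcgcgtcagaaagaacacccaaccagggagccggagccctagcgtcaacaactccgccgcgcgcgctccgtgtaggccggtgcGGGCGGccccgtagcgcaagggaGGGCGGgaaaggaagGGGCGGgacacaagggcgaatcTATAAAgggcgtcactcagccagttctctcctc
Med26 (chr8:72548311-72548560, minus strand): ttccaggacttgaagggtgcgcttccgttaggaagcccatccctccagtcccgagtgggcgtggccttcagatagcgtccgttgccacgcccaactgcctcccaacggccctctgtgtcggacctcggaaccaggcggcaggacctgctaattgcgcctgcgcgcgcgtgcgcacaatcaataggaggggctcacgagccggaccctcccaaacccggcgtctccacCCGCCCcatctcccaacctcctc
Med12 (chrX:101273841-101274090, plus strand): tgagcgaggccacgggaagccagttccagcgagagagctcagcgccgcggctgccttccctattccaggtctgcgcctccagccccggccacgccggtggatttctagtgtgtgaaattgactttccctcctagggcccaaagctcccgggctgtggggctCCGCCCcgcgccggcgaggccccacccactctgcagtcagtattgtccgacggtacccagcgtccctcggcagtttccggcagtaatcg
Taf4a (chr2:179976647-179976896, minus strand): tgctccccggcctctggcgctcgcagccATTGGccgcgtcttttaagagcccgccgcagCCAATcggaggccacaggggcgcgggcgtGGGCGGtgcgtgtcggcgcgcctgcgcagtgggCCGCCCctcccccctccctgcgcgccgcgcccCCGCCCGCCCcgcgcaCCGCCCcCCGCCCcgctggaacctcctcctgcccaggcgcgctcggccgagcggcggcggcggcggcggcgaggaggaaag
Gtf3c1 (chr7:125707689-125707938, minus strand): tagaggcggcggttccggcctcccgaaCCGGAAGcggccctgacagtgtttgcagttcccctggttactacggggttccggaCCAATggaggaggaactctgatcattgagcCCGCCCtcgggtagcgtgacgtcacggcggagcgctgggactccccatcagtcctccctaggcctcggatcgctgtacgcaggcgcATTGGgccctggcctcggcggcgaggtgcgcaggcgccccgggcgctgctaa
Polr3e (chr7:120917528-120917777, plus strand): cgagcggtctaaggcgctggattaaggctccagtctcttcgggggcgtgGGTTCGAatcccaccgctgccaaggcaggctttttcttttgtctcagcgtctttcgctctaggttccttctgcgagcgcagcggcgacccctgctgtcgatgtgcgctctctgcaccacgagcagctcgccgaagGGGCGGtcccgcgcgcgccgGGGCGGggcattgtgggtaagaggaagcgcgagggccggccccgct

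In the Polr2a promoter the TATAAA letters lay at -33 to -28 from the RefSeq start, below 3 GC boxes between -93 and -50. The RefSeq start used for it lies 410 bp from the start in the deposited table. Med26 and Med12 held 1 GC box each and none of the other letters, whereas Taf4a held 6 GC box matches, some of them overlapping, and 2 CCAAT matches. Gtf3c1 held the ETS letters CCGGAAG at -223 to -217 and CCAAT on either strand. Polr3e held 2 GC boxes near the start and the B box letters at -201 to -195.

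Of the 89 genes, 75 had a promoter in the RefSeq table (300 bases, 250 before the start and 50 after it). Letters of the ETS family, transcription factors common at housekeeping promoters, were in 27 of the 75 (36%), against 18.8% of the 9165 promoters of genes in the table and 9.12% of all 27025 promoters. Among promoters that overlapped an open region the shares were 24 of 63 (38.1%) for these genes and 23.7% of 6212. GC box letters were in 66.7% of these promoters, 65.3% of those of the table and 35.9% of all. CCAAT was in 33.3%, against 39.8% and 37.9%. TATAAA was in 8 promoters (10.7%, against 6.61% and 14.2%), those of Polr2a, Gtf2a2, Gtf2f1, Med7, Med16, Taf5, Taf6 and Taf13. NRF1 letters were in 10.7% (6.91% and 3.64%), YY1 letters in 13.3% (7.54% and 6.48%) and ZFP143 letters in 8% (4.47% and 3.45%). The promoters had a median of 60.3% G and C, against 61% in the table and 52.7% over all. Their median ratio of observed to expected CpG was 0.85, against 0.77 and 0.39. Among promoters that overlapped an open region this ratio was 0.82 for these genes and 0.82 for the table, with 59.3% and 62.7% G and C. There GC box letters were in 68.3% and 74.3%, and CCAAT in 34.9% and 43.9%. TATAAA was in 12.7% and 5.09%, NRF1 letters in 11.1% and 8.47%, YY1 letters in 12.7% and 8.34%, and ZFP143 letters in 9.52% and 5.39%. Among the 75 genes the median of the mean height over the 4 libraries was 25.6 with the ETS letters and 28.7 without them. A match of letters is a description and not a binding site.

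The libraries differed from each other over the whole genome. Peak intervals numbered 5484 and 4049 in the male libraries, against 10238 and 8022 in the female libraries, and no read totals were at hand, so the depth behind a height is unknown. Intervals of male 2 were wider, with a median of 284 bp against 160 to 171 bp in the other 3 libraries. Of the fat cell markers, 5 of 9 had a row in the table (Pparg, Lipe, Cfd, Cidec and Retn), as had 3 of 10 mammary epithelium, 1 of 7 leukocyte and 1 of 5 skeletal muscle markers. Their summed heights were lower in both males, for fat cells 93.7 and 59.8 in males against 187.5 and 161.9 in females and for mammary epithelium 14.1 and 7.34 in males against 74 and 57.5 in females. The leukocyte marker Cd79a had 43.8 and 24.97 in males against 67 and 60.8 in females, and the muscle marker Mb had 24.0 and 17.6 in males against 70 and 50.1 in females. Only Lipe and Cldn3 had a region within 1000 bp of the marker's start, and each shared all its regions with another gene. Those of the other 8 markers lay farther off, up to 101883 bp for Pparg, and 6 of them were linked also to other genes, so a marker's height may reflect another gene's region. The fat cell markers with no row were Adipoq, Fabp4, Lep and Plin1. The part of cell mixture or depth in the sex differences below was not tested, and in bulk tissue fewer nuclei of a type and less open chromatin per nucleus cannot be told apart.

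The machinery genes followed the shift of all genes between the sexes. Their mean height was 25.2 and 17.2 in the 2 male libraries, against 41.7 and 31.7 in the 2 female libraries, with the ranges apart. All genes averaged 25.3 and 16.8 in males against 40.9 and 32.5 in females. The difference of -15.5 had p = 0.333 in a two-sided exact permutation test, the smallest p that 2 against 2 libraries allow. Every gene measured had a called peak in at least 1 library. A female peak with none in a male was found for 20.2% of the 89 genes (27.9% of all genes). The reverse was found for 3.37% (4.05% of all genes). Many genes were thus included through a female library, which favours higher female heights, and no test here corrects for that. On the log2(height + 9) scale, which understates the change of low genes, the median difference, male minus female, was -0.62 for the 89 genes and -0.63 for all genes. Set against that overall median the list's own median was 0.01, with 41 genes below that median and 48 above it. The limma test over all 11993 genes with Benjamini-Hochberg adjustment called 0 of the 89 genes lower and 0 higher in males, against 0.592% (71 genes) and 0% of all genes. At an unadjusted p under 0.05, 25 of the 89 (28.1%) were lower in males and 0 higher, against 31.4% of all genes lower and 0.00834% (1 gene) higher. Both males lay below both females for 70 of the 89 genes (78.7%), against 76.4% of all genes, and above both females for 1, Taf4a, against 0.35% of all genes. The smallest adjusted p among the 89 was 0.0596 (Med12). All directions below are on the deposited scale: with each library centred on its median, which by construction removes the shift common to all genes, the median difference was 0.0016 for the 89 genes and -0.01 for all genes.

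**Figure D2:**
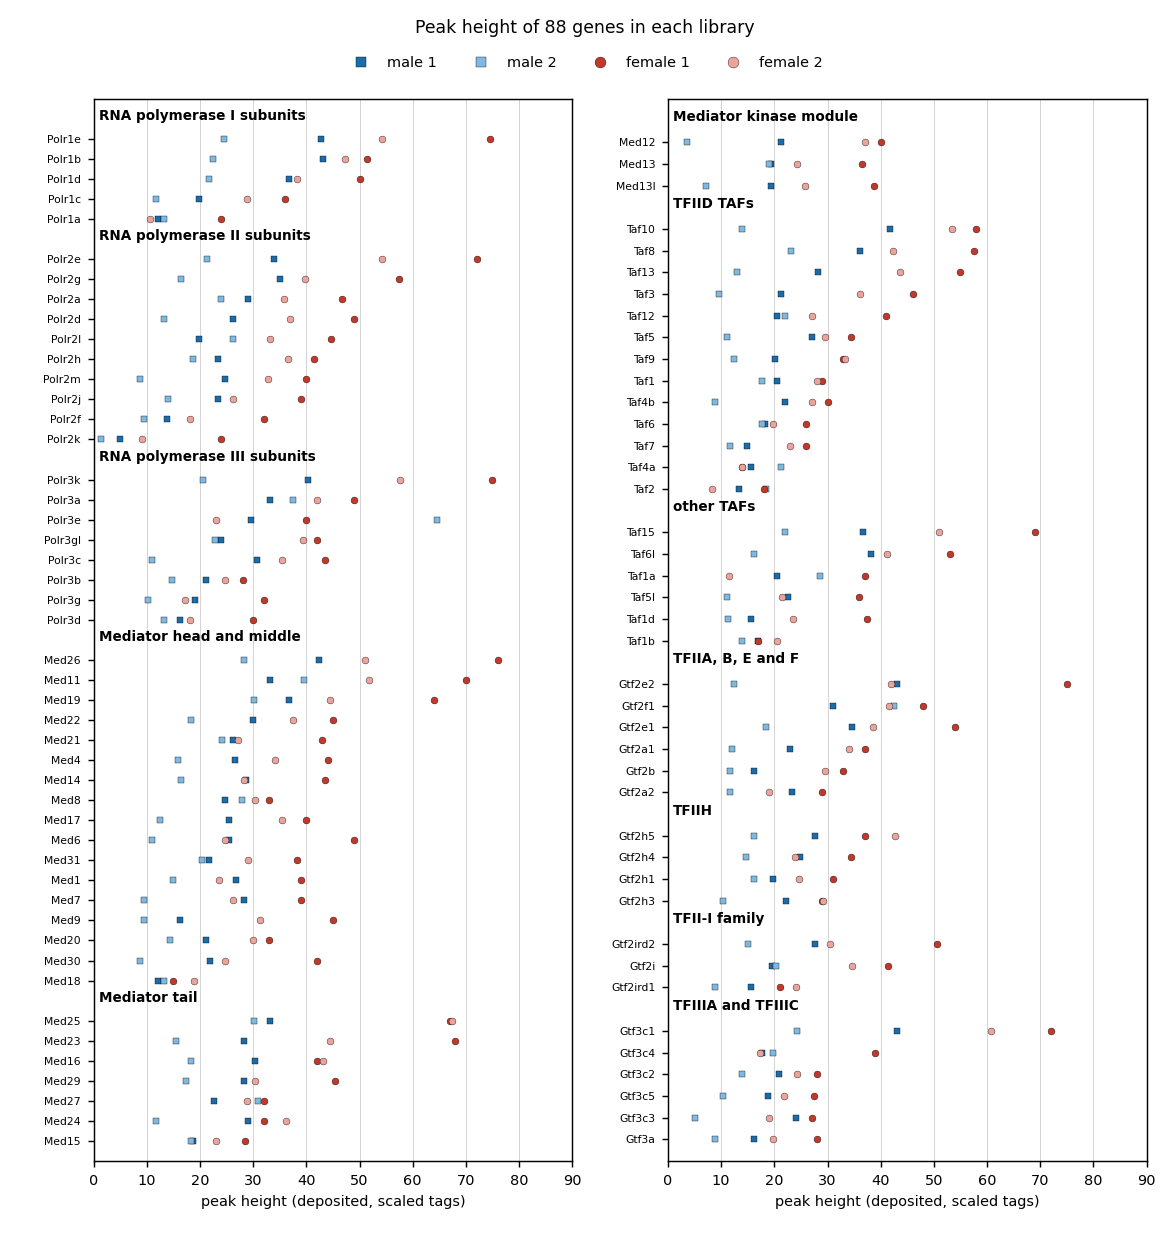
Peak height per library (x axis, deposited scaled tags) of 88 of the 89 genes, grouped by complex and ordered by mean height within a group. Squares are the 2 male libraries and circles the 2 female libraries. Female 1 was the highest library for 77 of the 89 genes (86.5%, against 79.7% of all genes). Male 2 was the lowest for 74 (83.1%, against 83.9% of all genes), and Polr3e stands out with 64.6 in male 2.

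Among the polymerase II subunits all 10 measured genes had both males below both females, as had 76.4% of all genes, with a median log2 difference of -0.73, or -0.10 relative to all genes. Counts by group cover measured genes only, here 10 of 13 listed. For polymerase I they cover 5 of 8, for the Mediator head and middle 17 of 19, and for the TAFs of TFIID 13 of 18. Polr2a, which encodes the largest, catalytic subunit, had heights of 29.0 and 24.0 in males against 46.7 and 35.9 in females (log2 -0.50, limma adjusted p = 0.303). It averages 3 regions around its start, shared with Zbtb4 and Slc35g3. The middle one, on chromosome 11 from 69758634 to 69759009 (mm10), had a peak in all 4 libraries, with summits of 36.8 and 49.9 in males against 63 and 42.7 in females, so that a male and a female library overlap there. The TATAAA letters printed above lie at the edge of that region. The outermost of the 3 regions, at 69759068 to 69759192, had a peak in both females and in no male. Polr2e, a subunit shared by all 3 polymerases, was the highest of the group with 33.9 and 21.3 in males against 72 and 54.3 in females (log2 -0.99, limma adjusted p = 0.124). Its single region, at the start, is linked also to Hmha1.

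Polr2k, another shared subunit, was the lowest of the group, with 4.95 and 1.47 in males against 24 and 9.04 in females (log2 -1.01, limma adjusted p = 0.0945). Its single region lies upstream of the gene, at -8961 bp from its start on chromosome 15 (36164943 to 36165072) and is linked also to Fbxo43, so this height need not belong to Polr2k. Polr2g, a stalk subunit, averaged 3 regions at 35.1 and 16.4 in males against 57.3 and 39.7 in females, 1 of which is the promoter of Taf6l, 12157 bp from the start of Polr2g. Polr2l, a small shared subunit, had 19.8 and 26.2 in males against 44.7 and 33.2 in females, but all its 3 regions lay over 1000 bp from its start, near Cd151, Tspan4 and Pnpla2, the gene of the adipose triglyceride lipase. Polr2f, shared by the polymerases, had 13.8 and 9.55 in males against 32 and 18.1 in females, and Polr2m had 24.7 and 8.81 in males against 40 and 32.9 in females, with a peak in female 1 alone. In none of these genes did the sexes overlap.

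The polymerase I subunits gave 5 measured genes, 4 of them lower in both males (76.4% over all genes), with a median difference of -0.53. Polr1e was the highest with 42.8 and 24.6 in males against 74.5 and 54.3 in females (log2 -0.80, limma adjusted p = 0.16). That height averages 2 regions, both linked also to Zbtb5. The region at -6049 bp from the Polr1e start had summits of 62.2 and 40.4 in males against 121 and 86.3 in females. The region at the start had peaks in the female libraries alone, with summits of 28 and 22.2. Polr1c, which polymerases I and III share, had 19.8 and 11.7 in males against 36 and 28.8 in females, with a peak in female 1 alone. Polr1a, the largest subunit of polymerase I, was the lowest and overlapped between the sexes, with 12.0 and 13.2 in males against 24 and 10.7 in females. Its only called peak was in male 2, at the start it shares with Ptcd3 on chromosome 6 (71909070 to 71909247), although the height of female 1 was greater. A called peak depends on the background of its library, so height and call can differ. Whether this accounts for Polr1a was not tested.

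The polymerase III subunits included the most positive difference of the 89 genes. Polr3e, a peripheral subunit, had heights of 29.7 and 64.6 in males against 40 and 23.02 in females. The sexes overlapped, with male 2 highest and female 2 lowest, and the difference of 0.43 (SE 0.41, limma adjusted p = 0.37) did not pass. Its single region, on chromosome 7 from 120917534 to 120917826, was linked to no other gene of the table, and it covers 65 of the 82 bp of n-TLaag4, a leucine transfer RNA gene that RefSeq places at 120917517 to 120917598. The B box letters printed in capitals above lie inside that transfer RNA gene. Peaks were called in male 2 and female 1, and the summit nearest the gene start lay 16 bp downstream of its deposited position. Which of these libraries gave that summit, and where the other summit lay, was not examined. Without male 2, the library that sets the positive sex difference of Polr3e, the difference was -0.03.

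**Figure D3:**
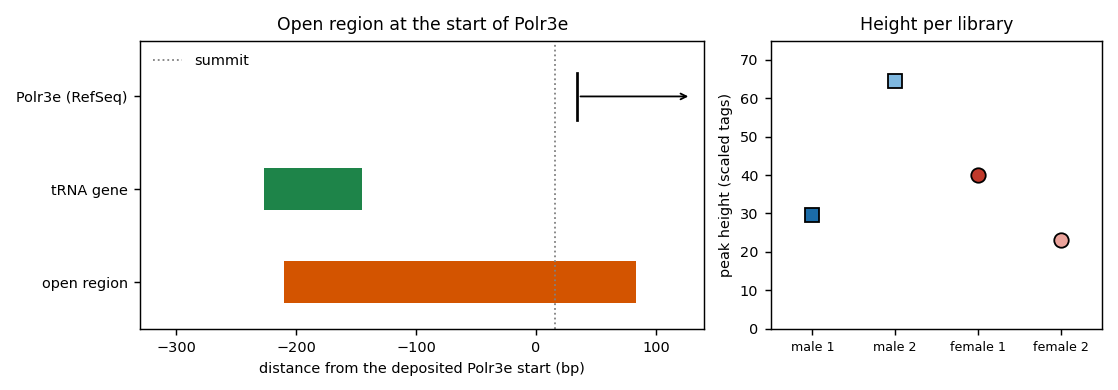
Left, the open region at the start of Polr3e (orange) and the transfer RNA gene (green), against the distance in bp from the deposited start. The arrow is the RefSeq start of Polr3e with the direction of transcription. The dotted line is the summit nearest the deposited start, among the peaks of male 2 and female 1. Right, the peak height (scaled tags) in the 2 male libraries (squares) and the 2 female libraries (circles), where male 2 at 64.6 is the highest of the 4.

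The other polymerase III subunits had differences from -0.97 to -0.30. Polr3k was the highest of them with 40.3 and 20.6 in males against 75 and 57.5 in females (log2 -0.97, limma adjusted p = 0.128). Its single region, at the start, is linked also to Pcmtd2 and 2810410D24Rik. Polr3a, the largest subunit, had 33.2 and 37.4 in males against 49 and 41.9 in females, from an upstream region, at -3610 bp from its start, that is linked also to the ribosomal protein gene Rps24. Polr3d had 16.3 and 13.2 in males against 30 and 18.1 in females. Its 2 regions were shared with Mir320, and the microRNA gene lies wholly inside the region at the Polr3d start (chromosome 14, 70443417 to 70443661). Polr3g, which has a close paralogue in Polr3gl, had 19.1 and 10.3 in males against 32 and 17.3 in females, so that the sexes overlapped, while Polr3gl had 24.0 and 22.8 in males against 42 and 39.5 in females with no overlap.

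In the Mediator head and middle, which contact the polymerase, 13 of 17 genes were lower in both males, where 76.4% of all genes were, and the median difference was -0.61, near the -0.63 of all genes. Med26, a subunit that links Mediator to elongation factors, was the highest of this group with 42.4 and 28.3 in males against 76 and 51.0 in females (log2 -0.71, limma adjusted p = 0.19). The region at its start on chromosome 8 (72548228 to 72548751) had summits of 45.2 and 31.6 in males against 86 and 56.7 in females, each male below each female. Med1, the contact of nuclear receptors, had 26.9 and 14.9 in males against 39 and 23.6 in females, so that male 1 exceeded female 2 (log2 -0.43, limma adjusted p = 0.343). At the Med1 start (chromosome 11, 98193237 to 98193606) peaks were called in both males and in female 1, with summits of 19.8 and 12.5 in males against 26 in female 1.

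Med9, a middle subunit, had the most negative value of the group with 16.3 and 9.55 in males against 45 and 31.2 in females (log2 -1.11, limma adjusted p = 0.0971). Its single region lay 16746 bp from its start, linked also to Rasd1 and Pemt, and had a peak in the female libraries alone. Med18, a head subunit, was the lowest of the group with 12.0 and 13.2 in males against 15 and 18.9 in females. Med8, a head subunit, showed the smallest difference, with 24.7 and 27.9 in males against 33 and 30.4 in females (log2 -0.21, limma adjusted p = 0.652). Med31, a highly conserved middle subunit, averaged 21.7 and 20.3 in males against 38.3 and 29.0 in females over 3 regions. Med7 (28.3 and 9.55 in males against 39 and 26.3 in females) overlapped between the sexes, and Med17, a scaffold of the head, did not (25.4 and 12.5 in males against 40 and 35.3 in females).

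The Mediator tail, which contacts activators, had 6 of 7 genes lower in both males (76.4% of all genes) and a median difference of -0.62, against -0.63 over all genes. Med23 had the most negative value with 28.3 and 15.4 in males against 68 and 44.4 in females (log2 -1.09, limma adjusted p = 0.109), from a region of its own at its start. Med25 was the highest with 33.2 and 30.1 in males against 67 and 67.4 in females (log2 -0.91, limma adjusted p = 0.138), but its region lay 22350 bp from its start. Med27 was the tail gene whose sexes overlapped, with 22.6 and 30.8 in males against 32 and 28.8 in females. Med15 had 18.7 and 18.4 in males against 28.5 and 23.02 in females, and Med29 had 28.3 and 17.4 in males against 45.3 and 30.4 in females, both without overlap.

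The kinase module, which binds Mediator reversibly, held the most negative difference of the 89 genes. Med12, an X-linked gene that encodes the activator of its kinase, had 21.2 and 3.67 in males against 40 and 37.0 in females, with both females above both males and a wide gap between the males. The log2 difference was -1.28 (SE 0.373, limma adjusted p = 0.0596), or -0.65 relative to all genes. Its region on chromosome X (101273942 to 101274216) lies at the start and is linked also to Il2rg, a cytokine receptor gene, and Gm614, and peaks were called in male 1 and both females. Of the other 2 X-linked genes, Med14, the backbone of Mediator, had 28.6 and 16.5 in males against 43.5 and 28.4 in females and overlapped between the sexes (log2 -0.52), and Taf1 had 20.5 and 17.6 in males against 29 and 27.9 in females (log2 -0.42). Relative to all genes these were 0.11 and 0.21. Without a trend in the variance model Med12 passed in limma (adjusted p = 0.036), while without male 2, whose value was 3.67, its difference was -0.65 (limma adjusted p = 0.538, with male 1 alone assumed to vary like the 2 females). Med13l, a kinase module paralogue of Med13, had 19.4 and 7.16 in males against 38.8 and 25.7 in females over 4 regions, and Med13 had 19.4 and 19.1 in males against 36.5 and 24.2 in females.

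**Figure D4:**
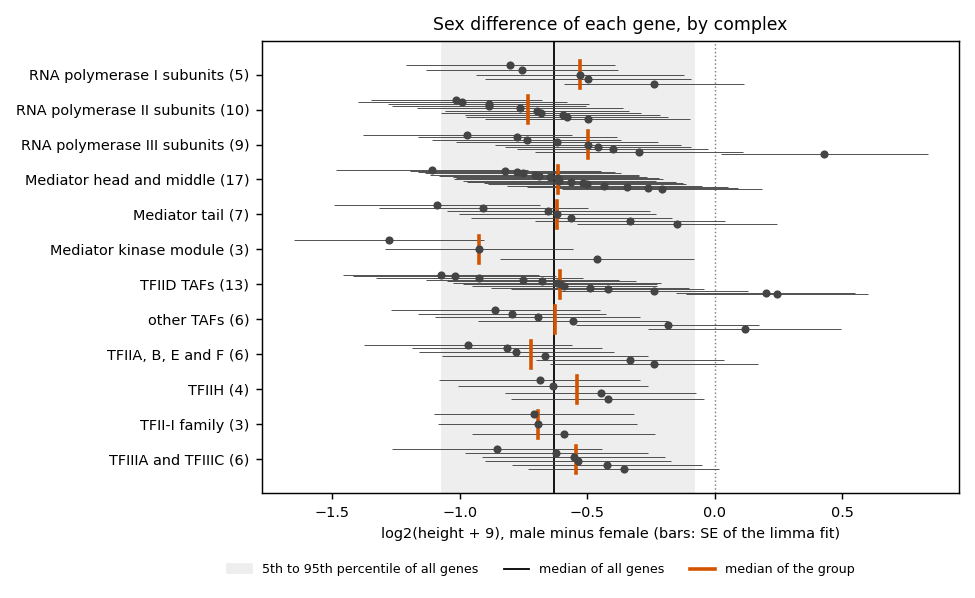
Log2 difference, male minus female, of each of the 89 genes (points, with the SE of the limma fit), by complex with the number of genes in parentheses. The vertical black line is the median of all genes (-0.63), the grey band their 5th to 95th percentile (-1.07 to -0.08), and orange marks are group medians, which run from -0.92 (kinase module) to -0.50 (polymerase III).

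Among the TAFs of TFIID 11 of 13 genes were lower in both males, against 76.4% of all genes, with a median difference of -0.61. Taf10, which TFIID shares with the SAGA coactivator, was the highest with 41.7 and 14.0 in males against 58 and 53.4 in females (log2 -0.92, limma adjusted p = 0.135). That height averages 2 regions, both linked also to Rrp8, Ilk and Tpp1. The region 7730 bp from the Taf10 start had summits of 64.3 in male 1 against 85 and 76.4 in females. The region at the start had peaks in the female libraries alone, with summits of 31 and 30.4. Taf3, which reads methylated lysine on histone H3 at active promoters, had the most negative value with 21.2 and 9.55 in males against 46 and 36.2 in females (log2 -1.07, limma adjusted p = 0.101), and a peak in the female libraries alone. Taf13 followed with 28.3 and 13.0 in males against 55 and 43.6 in females over 3 regions. Taf5 averaged 27.1 and 11.01 in males against 34.3 and 29.6 in females, and Taf7 had 14.8 and 11.7 in males against 26 and 23.02 in females. None of these genes overlapped between the sexes.

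Taf4a (now Taf4), a structural core subunit, was the single gene of the 89 with both males above both females, at 15.6 and 21.3 in males against 14 and 14.0 in females. The difference of 0.25 (limma adjusted p = 0.551) did not pass, and its only called peak was in male 2, at -442 bp from the start (chromosome 2, 179976897 to 179977098), in a region shared with 4921531C22Rik. Taf4a was thus included through a male library alone. Taf2, which contacts core promoter DNA, had 13.4 and 18.4 in males against 18 and 8.22 in females and a peak in male 1 alone (log2 0.20, limma adjusted p = 0.624). Its values overlapped, and without female 2 the difference was -0.12. Taf6, a histone-fold TAF, averaged 4 regions with 18.2 and 17.6 in males against 26 and 19.7 in females. Only 1 of the 4 regions lay at its start, and a peak was called there in male 2 alone, while the other peaks lay at Mcm7, the host of Mir25, Mir93 and Mir106b, and at Gm454.

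The remaining TAF genes belong to other complexes. Taf15, an RNA-binding protein of the FET family, was the highest with 36.8 and 22.0 in males against 69 and 51.0 in females (log2 -0.86, limma adjusted p = 0.147). Taf1a, a subunit of the polymerase I selectivity factor SL1, had 20.5 and 28.6 in males against 37 and 11.5 in females, with both males between the females (log2 0.12, limma adjusted p = 0.79), a difference that was -0.06 without male 2 and -0.47 without female 2. Taf1b, another SL1 subunit, had 17.0 and 14.0 in males against 17 and 20.6 in females (log2 -0.18, limma adjusted p = 0.661). Taf5l, a SAGA subunit, overlapped between the sexes at 22.6 and 11.01 in males against 36 and 21.4 in females.

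The general factors that join polymerase II at the promoter had 3 of 6 genes with both males below both females in the set of TFIIA, B, E and F, against 76.4% of all genes. Gtf2e2, the smaller TFIIE subunit, was the highest with 43.1 and 12.5 in males against 75 and 41.9 in females, and male 1 exceeded female 2 (log2 -0.97, limma adjusted p = 0.126). Its single region, at the start, is linked also to 1700104B16Rik. Gtf2f1, the larger TFIIF subunit, had 31.1 and 42.6 in males against 48 and 41.5 in females and overlapped (log2 -0.24, limma adjusted p = 0.616). Gtf2b, the gene of TFIIB, had 16.3 and 11.7 in males against 33 and 29.6 in females (log2 -0.81, limma adjusted p = 0.142), with a peak in the female libraries alone. The TFIIA genes were Gtf2a1 at 22.97 and 12.1 in males against 37 and 34.1 in females, without overlap, and Gtf2a2 at 23.3 and 11.7 in males against 29 and 18.9 in females, with overlap. Of the 4 TFIIH genes, 3 were lower in both males (76.4% over all genes). These included Gtf2h5, at 27.6 and 16.2 in males against 37 and 42.7 in females, and Gtf2h3, at 22.3 and 10.3 in males against 29 and 29.2 in females. Gtf2h4 overlapped at 24.7 and 14.7 in males against 34.5 and 23.8 in females.

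The TFII-I family, signal-responsive factors of the Williams syndrome region in humans, gave 3 genes that neighbour each other on chromosome 5, each lower in both males, as were 76.4% of all genes. Gtf2i had 19.6 and 20.3 in males against 41.3 and 34.5 in females, and its 3 regions had peaks in female libraries alone. The region at its start (134314833 to 134315063) had summits of 61 and 56.7 in the females. Gtf2ird2 had 27.6 and 15.1 in males against 50.5 and 30.4 in females. Gtf2ird1 had 15.6 and 8.81 in males against 21 and 24.1 in females, from 3 regions downstream of its start, the nearest at 32556 bp.

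The TFIIIA and TFIIIC genes gave 4 of 6 with both males below both females, against 76.4% of all genes, and a median difference of -0.54. Gtf3c1, the largest TFIIIC subunit, which binds the B box, was the highest with 43.1 and 24.2 in males against 72 and 60.8 in females (log2 -0.85, limma adjusted p = 0.149). Its region on chromosome 7 (125707636 to 125707939) had a peak in all 4 libraries and was shared with the divergent gene D430042O09Rik. Gtf3c4 overlapped between the sexes with 17.7 and 19.8 in males against 39 and 17.3 in females, as did Gtf3c3 with 24.0 and 5.14 in males against 27 and 18.9 in females. Gtf3a, the gene of TFIIIA, which is specific to 5S ribosomal RNA genes, had 16.3 and 8.81 in males against 28 and 19.7 in females, and no overlap.

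A peak was called for 59 and 50 of the 89 genes in the male libraries, against 84 and 70 in the female libraries. As shares these were 66.3% and 56.2% in males, where all genes had 61.2% and 49.1%, against 94.4% and 78.7% in females, where all genes had 89.7% and 76.7%. All 4 libraries had a peak for 37 genes (41.6%, against 35.9% of all genes), and 11 genes (12.4%, against 19.8%) had a peak in 1 library. Peaks in both females with none in a male were found for 10 genes (11.2%, against 11.7% of all genes), and peaks in both males with none in a female for 0 genes, against 0.475% of all genes. With the same number of intervals taken from each library by height, 4049, the 89 genes with a peak in all 4 libraries numbered 23 (25.8%), the same share as among all genes (25.8%).

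**Figure D5:**
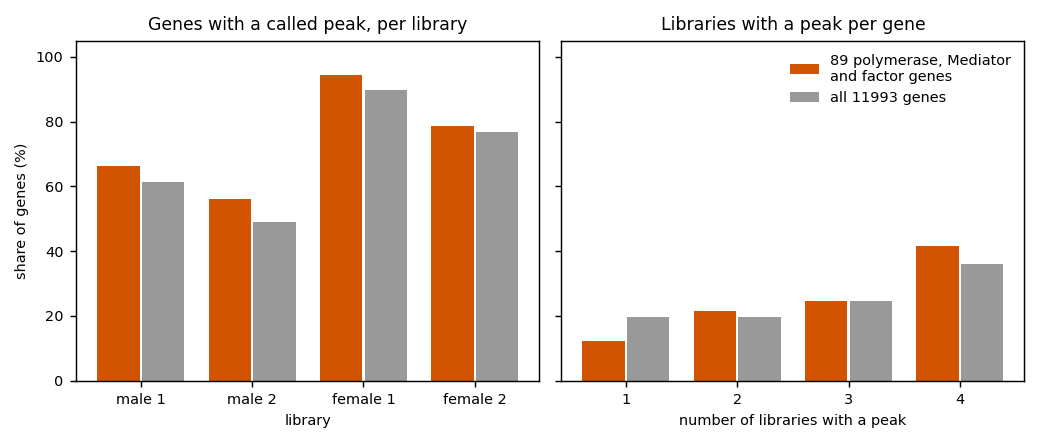
Share of genes (y axis, percent) with a called peak in each library (left) and by the number of libraries with a peak (right), for the 89 genes (orange) and all 11993 genes (grey). In each library the share of the 89 genes was above that of all genes, as in male 2 with 56.2% and 49.1%.

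Genes of the same pathway that the name rule leaves out gave 49 rows, of which the limma test called 0 lower and 0 higher in males (adjusted over all genes). At an unadjusted p under 0.05, 13 of the 49 were lower and 0 higher, against 31.4% of all genes lower. Their median difference was -0.57, or 0.06 relative to all genes. Tbp, the TATA-binding protein, had 21.2 and 16.2 in males against 35.7 and 32.6 in females. The most negative were Nelfe, a subunit of the pausing factor NELF, with 24.7 and 11.01 in males against 58 and 41.1 in females (log2 -1.16, limma adjusted p = 0.0972), Cdk7, the TFIIH kinase (log2 -1.07), and Ubtf, the polymerase I factor UBF (log2 -1.07). The least negative were Supt6, an elongation factor (log2 -0.07), Ercc3, a TFIIH helicase (log2 -0.02), and Snapc5, a subunit of the factor for small nuclear RNA genes (log2 0.17), with 19.1 and 19.1 in males against 12 and 20.6 in females. None of these 6 passed, and the last 3 overlapped between the sexes.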

How the data were processed

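The 4 libraries (2 male, 2 female) were made with Tn5 and 10 cycles of PCR, per the labels' protocols. The submitters' processing notes name BWA, MACS2 2.1.0 and the build mm10. Filters, removal of duplicates and any Tn5 offset are not stated. The deposited signal is a peak height, a coverage that the authors scaled by a factor per library and averaged over the regions linked to a gene, per the file headers and values. For genes with 1 region the heights were whole multiples of a step per library (0.707 and 0.734 in males, 1 and 0.822 in females). The deposited region count gives the merged regions per gene. Depth is unknown, and called peaks depend on it.

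Heights were taken as log2(height + 9). Genes at 0 in 3 or more libraries were to be left out, which removed none of the 11993. The sexes were compared over all genes with limma 3.58.1 (trend, R 4.3.3, Benjamini-Hochberg, threshold 0.05). A mean over genes was compared with an exact permutation test. Promoters and gene models came from RefSeq tables (GRCm38.p6), in which all 89 genes matched by gene ID and 75 had a promoter sequence. Python 3.11.15, pandas 2.3.3, numpy 2.4.6, scipy 1.17.1 and matplotlib 3.10.9 served for the rest. Members were named where they had the highest or lowest mean height or the most negative or positive difference of their group (12 groups), a peak in at most 2 libraries, 3 or more regions, no region within 1000 bp of the start, or both males above both females, which gave 59 of the 89. Any others were named for their role. Of these, 1 is not reported here by name, though it is counted in the totals. The members, gene lists and motifs were chosen with earlier results of these data known. Alternatives covered the pseudocount (1 and 36), filters, centring, quantile normalization, a replicate block, the trend, genes with identical regions taken once, and the omission of each library in turn.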

Additional observations from a re-analysis of the deposited data

How the results depend on the processing

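The median of the 89 genes relative to all genes stayed between -0.01 and 0.06 under every alternative run. The counts of called genes did not hold. Genes lower in males numbered 71 as reported, 49 and 68 with a pseudocount of 1 and 36, 80 with a row per set of regions and 416 without trend. They numbered 0 with the 25th-percentile filter (of 8994), 0 with centred libraries, 0 after quantile normalization, and 0 to 6391 with a library left out (6391 without male 1, 0 without male 2, 19 without female 1, 64 without female 2). Genes higher in males numbered 0 to 28 with a library left out. Each such fit leaves 1 library in an arm, which is assumed to vary like the 2 of the other sex. Of the 89 genes, 0 were lower as reported, 1 without trend (Med12), and 0 to 49 with a library left out (49 without male 1, 1 without female 2, Polr2k). Those higher in males numbered 0 to 1. With the replicate number as a block 6918 genes were lower and 7 higher, among them 53 of the 89 lower. The labels do not say whether same-numbered libraries are paired. Over genes, same-numbered libraries deviated with a correlation of 0.0166, which cannot show an offset common to all genes. With 2 pairs at most, the block is given as a count alone. The cause of these shifts was not tested.

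Centring moves the median of all genes from -0.63 to -0.01 on the log2 scale, so the sign of many differences depends on it. With centred libraries the mean height difference was 1.01 (exact permutation p = 0.667), and the log2 difference turned positive for 25 named genes: Polr1a 0.38, Polr2a 0.12, Polr2l 0.038, Polr3a 0.32, Polr3d 0.16, Polr3g 0.12, Med1 0.19, Med18 0.36, Med31 0.12, Med8 0.41, Med15 0.29, Med27 0.47, Med29 0.056, Med13 0.16, Taf5 0.012, Taf6 0.38, Taf7 0.028, Taf1b 0.43, Taf5l 0.063, Gtf2a2 0.29, Gtf2f1 0.38, Gtf2h4 0.20, Gtf2ird1 0.026, Gtf3c3 0.066 and Gtf3c4 0.26. After quantile normalization the sign turned positive for 23: Polr1a 0.35, Polr2a 0.14, Polr2l 0.028, Polr3a 0.31, Polr3d 0.14, Polr3g 0.097, Med1 0.18, Med18 0.32, Med31 0.11, Med8 0.40, Med15 0.27, Med27 0.45, Med29 0.065, Med13 0.16, Taf5 0.0018, Taf6 0.35, Taf1b 0.40, Taf5l 0.057, Gtf2a2 0.27, Gtf2f1 0.34, Gtf2h4 0.19, Gtf3c3 0.011 and Gtf3c4 0.25. With a library left out, the sign changed for 7 named genes, whose values ran from -0.61 to 0.13 for Polr1a, from -0.034 to 0.89 for Polr3e, from -0.32 to 0.018 for Med27, from -0.47 to 0.70 for Taf1a, from -0.12 to 0.52 for Taf2, from -1.16 to 0.060 for Gtf3c3 and from -0.79 to 0.078 for Gtf3c4. The values of changed sign arose for Med27 without male 1, for Polr3e, Taf1a and Gtf3c3 without male 2, for Polr1a and Gtf3c4 without female 1, and for Taf2 and Taf1a without female 2. Genes of the 89 with a peak in all 4 libraries numbered 37 (41.6%, against 35.9% of all genes). They numbered 20 (22.5%, against 19.0%) where an interval had to cover at least 50% of the region. With 4049 intervals from each library they numbered 23 (25.8%, against 25.8%). With a library left out, an easier criterion, a peak in every remaining library was found for 37 to 53 genes. As shares these were 41.6% to 59.6%, against 36.3% to 53.6% of all genes. The unknown depth limits all calls of a missing peak.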

Other observations

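Transfer RNA genes, which polymerase III transcribes, were looked at after the value of Polr3e had been seen, so these values are a description. A region over a RefSeq transfer RNA gene was linked to 41 genes of the table, with a median log2 difference, male minus female, of -0.41, or 0.22 relative to all genes. Male 2 was the highest library for 3 of the 41 (7.32%), against 2.68% of all genes. Polr3e, whose value prompted the look, is 1 of these 3. Among genes with a single region, 10 different regions lay over a transfer RNA gene, with a median of -0.47, or 0.16 relative to all genes, and male 2 was highest at 1 of the 10, that of Polr3e.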
